A study of Mus musculus with 12 samples.

Results

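The clustered histone genes are the mouse genes that encode the linker histone H1 and the core histones H2A, H2B, H3 and H4 from gene-dense clusters. They were taken as every gene of the deposited expression tables whose symbol starts with Hist1h, Hist2h, Hist3h or Hist4h, which gave 70 of 52858 genes. Of these, 56 carry Hist1 symbols and lie on chromosome 13, 55 of them in the Hist1 cluster (GRCm38, 21715763 to 23934851) and Hist1h2al outside it. A further 10 lie in Hist2 on chromosome 3, 3 in Hist3 on chromosome 11 and 1 in Hist4 on chromosome 6. They comprise 6 H1, 20 H2A, 19 H2B, 12 H3 and 13 H4 genes, of which 67 are annotated as protein coding and 3 as pseudogenes (Hist1h2al, Hist1h2aj and Hist3h2bb-ps).

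RNA was sequenced from hearts of male mice aged 3 to 5 months in 4 groups of 3 libraries each. C57-non-IR and C57-IR hearts came from wild-type C57BL/6J mice, and Slit2-non-IR and Slit2-IR hearts from heterozygous Slit2-Tg mice, which carry a human Slit2 cDNA driven by the CMV promoter. This promoter is not specific to the heart or to cardiomyocytes, expression outside the heart was not measured here, and the founders were made in hybrid C57 × CBA oocytes. All hearts were isolated and perfused in Langendorff mode. IR hearts had 20 min of stable perfusion, 20 min of no-flow global ischemia (I) and 40 min of reperfusion (R), whereas non-IR hearts were perfused without interruption for 80 min. The libraries of a group were described as independent samples; where these were not separate hearts, p-values measure only the spread between samples.

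Clustered histone genes are replication-dependent. Their transcription peaks when DNA is copied in S phase, so that new chromatin receives H1, which binds the linker DNA between nucleosomes, and the core histones that form the nucleosome itself. Their mRNAs are unusual in lacking a poly(A) tail: they end shortly after a conserved stem-loop that is bound by the stem-loop binding protein Slbp. Some members also make longer, polyadenylated transcripts that run past the stem-loop and are found in cells that have left the cell cycle. Adult cardiomyocytes rarely divide and draw mainly on replication-independent variants, such as H3.3, that are encoded outside these clusters.

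The stem-loop is shown here because it defines how these mRNAs end and because members differed in how much transcript is annotated beyond it. A stem GGNNCT, a loop of 4 bases starting TT and the reverse complement of the stem were searched for on the sense strand of the longest GENCODE M21 transcript (GRCm38). They were found in 43 of 70 members (61.4%) and in 54 of 55450 genes in all (0.0974%). Capitals mark the stem-loop, with the flanking bases in lower case, in H1, H2B and H3 members that share 1 form and in 2 H4 members with other stems.
Hist1h1c: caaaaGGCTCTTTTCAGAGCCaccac
Hist1h2bg: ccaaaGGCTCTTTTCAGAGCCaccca
Hist1h3d: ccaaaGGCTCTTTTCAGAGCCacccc
Hist1h4h: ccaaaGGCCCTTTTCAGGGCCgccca
Hist1h4i: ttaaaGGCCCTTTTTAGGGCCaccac
The form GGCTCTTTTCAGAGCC was carried by 25 members, among them members of Hist1, Hist2 and Hist3, and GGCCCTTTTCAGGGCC by 7.

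Annotated ends beyond the stem-loop and levels in the heart were set side by side, in FPKM (fragments per kilobase of transcript, scaled to the mapped fragments of the library). Transcripts of 20 members ended within 60 bases of the stem-loop, and the median of their mean FPKM over the 12 libraries was 0.066. For 23 members with a longer annotated tail the median was 0.279, and for 27 members in which no stem-loop was found it was 0.0343. Among these 27, Hist1h2bc had the highest mean, at 36.1 FPKM. Some of their annotated transcripts are short, such as 312 bases in Hist1h4k, and a stem-loop beyond the annotated end would be missed. Hist1h4h, with 46 bases after the stem-loop, was the exception among the short ends with a mean of 34.5 FPKM. Alone among the members with short ends, its annotated transcript has a poly(A) signal (AATAAA or ATTAAA) in the last 40 bases. The longest tails among the better expressed members were 1861 bases in Hist1h2be, 1643 in Hist3h2a, 1153 in Hist1h1e and 840 in Hist1h1c. Whether poly(A) RNA was selected for these libraries is not given in the sources used here, and its part in these levels was not tested.

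The 12 libraries held 16601154 to 24841291 reads on genes, recovered from the deposited FPKM values. Summed levels of 9 cardiomyocyte markers were high in every library, from 14900 to 22740 FPKM. Libraries stood apart in markers of other cells: Slit2-IR 1 had 1758 FPKM of 7 atrial markers against 26.6 to 246 in the other 11, Slit2-non-IR 2 had 49.0 FPKM of 5 erythroid markers against 1.48 to 16.2, and C57-IR 2 and C57-IR 3 had 19.2 and 21.4 FPKM of 6 adipose markers, followed by Slit2-IR 1 with 13.2, Slit2-non-IR 3 with 10.8 and 0.041 to 8.13 in the rest. The 5 lung markers summed to 5.49 to 12.3 FPKM in C57-non-IR 2 and 3, C57-IR 2 and 3 and Slit2-non-IR 2 and to at most 0.173 FPKM in the other 7 libraries, which include all 3 Slit2-IR libraries. Lymphocyte markers, as one dividing cell source, summed to 0.181 to 0.374 FPKM. Mouse Slit2 itself was at 0.0847 to 0.813 FPKM, with the highest value in Slit2-IR 2; the transgene is a human cDNA, so this value does not check the genotype labels. The part of these differences in the histone values was not tested. In bulk RNA, fewer cells of a type and less RNA per cell cannot be told apart.

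Few members carried nearly all of the signal. Of 51019 reads on the 70 members, 42770 (83.8%) fell on Hist1h1c, Hist1h2bc and Hist1h4h, and these 3 genes made up 74.9 to 90.5% of the summed FPKM in each library. Only these 3 had a mean above 10 FPKM; 7 members lay between 1 and 10 FPKM, 48 were above 0 but under 1, and 12 had no read in any library. Between 33 and 44 members had at least 1 read in a given library. With 3 reads as the limit that a count of 0 allows, the 12 members without reads could have been present at up to 0.0649 to 0.50 FPKM, depending on gene length and library, for counting error alone.

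**Figure D1:**
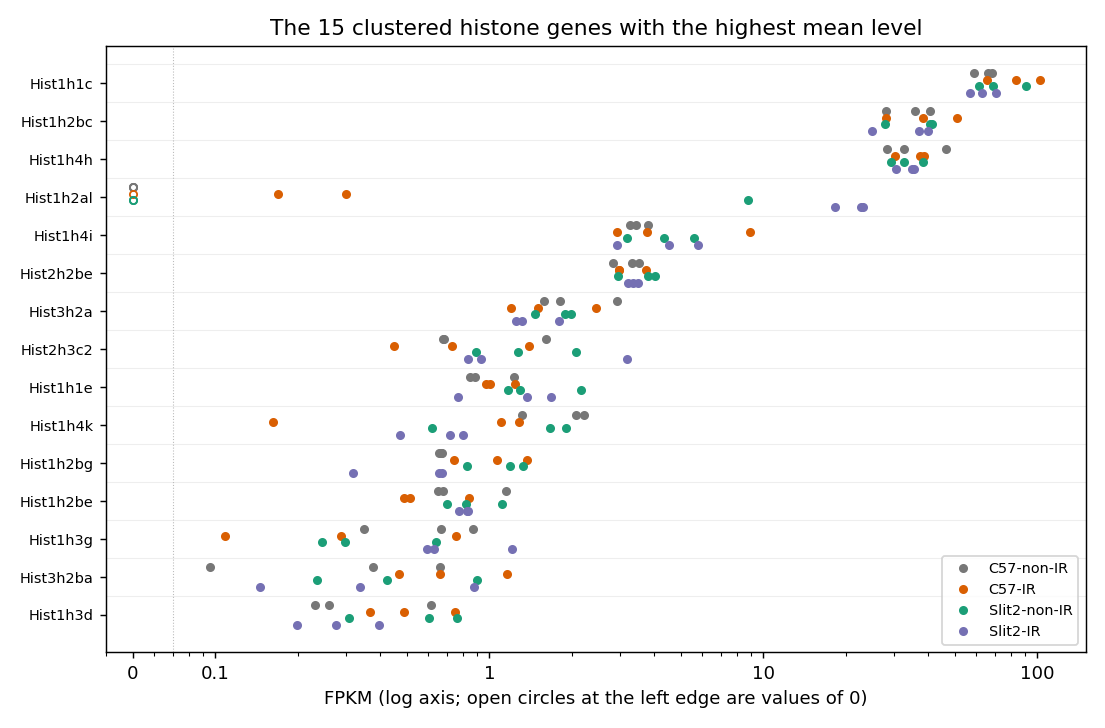
FPKM of the 15 members with the highest means on a log axis, with values of 0 as open circles at the left edge and 1 point for each of the 12 libraries coloured by group. Hist1h1c, Hist1h2bc and Hist1h4h lie well above the rest with the 4 groups intermixed, while Hist1h2al is high in 4 Slit2-Tg libraries and at or near 0 in the others.

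The linker histone Hist1h1c (ENSMUSG00000036181, GRCm38 chromosome 13, 23738808 to 23740367, plus strand), which encodes the somatic H1.2, was the most abundant member. Its FPKM was 65.8, 58.9 and 68.2 in C57-non-IR hearts, 83.3, 65.7 and 102.2 in C57-IR hearts, 61.4, 90.8 and 69.1 in Slit2-non-IR hearts and 63.1, 70.8 and 56.6 in Slit2-IR hearts. The highest C57-IR library and the highest Slit2-non-IR library stood above the rest, and all 4 groups overlapped. On the log2(FPKM + 1) scale the change with IR was 0.36 ± 0.17 (SE) in C57 hearts (adjusted p = 0.613, limma) and -0.20 ± 0.17 in Slit2 hearts (adjusted p = 0.761). The difference between these IR effects was -0.55 ± 0.25, with an unadjusted p under 0.05 and an adjusted p of 1.0. Without C57-IR 3 it was -0.40 ± 0.23, with an unadjusted p over 0.05.

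Hist1h1e, which encodes the somatic H1.4, was the only other H1 member above 1 FPKM on average, at 0.767 to 2.17 FPKM. Its highest values were 2.17 in Slit2-non-IR 3 and 1.69 in Slit2-IR 1. Its gene (chromosome 13, 23620629 to 23622558, minus strand) shares 496 transcribed bases with Hist1h2be, so reads there cannot be assigned to one of them with certainty.

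Among the core histones, Hist1h2bc (ENSMUSG00000018102, chromosome 13, 23684199 to 23692908, plus strand), an H2B gene, had 28.0, 40.6 and 35.7 FPKM in C57-non-IR, 28.1, 38.1 and 51.0 in C57-IR, 27.9, 41.4 and 40.6 in Slit2-non-IR and 25.0, 36.9 and 39.9 in Slit2-IR hearts. In each group the library numbered 1 was the lowest. The groups overlapped, and the log2 differences lay between -0.18 and 0.14 over the 4 pairs of groups, each with an SE of 0.25. Hist1h4h (ENSMUSG00000060981, chromosome 13, 23531050 to 23531519, plus strand), an H4 gene, had 46.5, 28.2 and 32.6 FPKM in C57-non-IR, 30.4, 38.5 and 37.3 in C57-IR, 29.2, 38.3 and 32.6 in Slit2-non-IR and 30.4, 35.6 and 34.8 in Slit2-IR hearts. Its highest value was in a control heart, and the change with IR was 0.01 ± 0.17 in C57 and 0.02 ± 0.17 in Slit2 hearts.

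Hist1h4i, another H4 gene, had 2.91 to 5.80 FPKM in 11 libraries and 8.94 in C57-IR 3. Hist2h2be, an H2B gene, had 2.82 to 4.04 FPKM, with the groups intermixed. Hist3h2a, an H2A gene that overlaps Trim17, spanned 1.20 to 2.93 FPKM, and Hist2h3c2, an H3 gene, spanned 0.447 to 3.19 FPKM with its highest values in Slit2-IR 1 (3.19) and Slit2-non-IR 1 (2.08). Hist1h2be had 0.490 to 1.149 FPKM, Hist3h2ba 0.0956 to 1.16 and Hist1h3g 0.108 to 1.21. C57-IR 3 held the highest value of 15 of the 58 members with reads, and Slit2-non-IR 1 of 0.

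Summed by class, the H1 genes reached 65.8 ± 5.29 FPKM (SD, n = 3) in C57-non-IR, 85.3 ± 18.7 in C57-IR, 75.8 ± 15.4 in Slit2-non-IR and 65.1 ± 7.42 in Slit2-IR hearts. H2B genes summed to 41.1 ± 6.95, 46.1 ± 13.6, 44.0 ± 8.58 and 40.3 ± 8.08 FPKM in the same order, and H4 genes to 42.2 ± 9.69, 43.7 ± 8.14, 40.5 ± 6.86 and 39.9 ± 4.73 FPKM. Differences between these sums were within about the spread of the libraries. H3 genes summed to only 2.79 ± 0.352, 2.51 ± 1.30, 3.19 ± 0.164 and 3.72 ± 1.74 FPKM, well under the H4 sums. H2A was the class that stood apart, with 3.27 ± 1.07, 2.74 ± 1.16, 6.36 ± 4.76 and 24.1 ± 1.90 FPKM. Without Hist1h2al the H2A sums were 3.27 ± 1.07, 2.58 ± 1.30, 3.42 ± 0.333 and 2.73 ± 0.773 FPKM. The excess in Slit2-IR hearts thus lay in the values assigned to Hist1h2al. These sums were not tested.

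**Figure D2:**
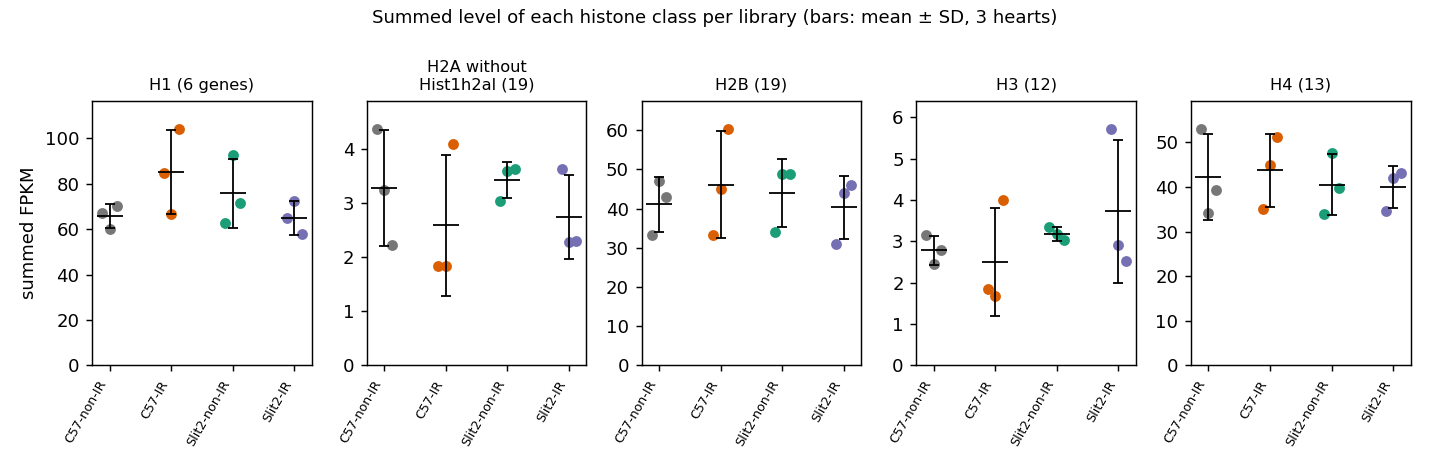
Summed FPKM of the H1, H2A (without Hist1h2al), H2B, H3 and H4 members by group, 1 panel per class, with points for the 3 libraries and black lines for the mean and SD. The axes start at 0 and differ between panels; in every panel the 4 groups overlap, for example H2A without Hist1h2al at 3.27 ± 1.07 FPKM in C57-non-IR and 2.73 ± 0.773 in Slit2-IR hearts.

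Hist1h2al, annotated as a processed pseudogene of H2A (ENSMUSG00000091383, chromosome 13, 51202727 to 51203065, minus strand), lies outside the Hist1 cluster. Its FPKM was 18.3, 22.7 and 23.2 in the 3 Slit2-IR libraries and 8.82, 0 and 0 in the Slit2-non-IR libraries. In C57-IR hearts it was 0.169, 0.299 and 0, and it was 0 in all 3 C57-non-IR hearts. Recovered reads were 126, 185 and 175 in Slit2-IR, 62, 0 and 0 in Slit2-non-IR, 1, 2 and 0 in C57-IR and 0 in each C57-non-IR library. Thus every Slit2-IR library lay above every other library, and within Slit2-non-IR 1 library differed from the remaining pair by 62 reads against none.

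Pooled over libraries and scaled for depth, Hist1h2al reads were 145-fold as many in Slit2-IR hearts as in C57-IR hearts (486 against 3 reads, 95% counting interval 49.3 to 705) and 8.13-fold higher in Slit2-IR than in Slit2-non-IR hearts (486 against 62 reads, 6.23 to 10.8). Against C57-non-IR hearts, with no read and a limit of 3 reads over the group, Slit2-IR was at least 136-fold and Slit2-non-IR at least 16.7-fold higher. Without Slit2-non-IR 1, Slit2-IR was at least 118-fold higher than Slit2-non-IR. These intervals cover counting error only, and the limma test, which uses the spread between libraries, gave no adjusted p under 0.05. Hist1h2al passed the filter on low values, described below, only through the libraries in which it is high, so its fits describe these libraries and do not support the difference. The log2 difference was 4.28 ± 0.67 between Slit2-IR and C57-IR (adjusted p = 0.0864) and 3.38 ± 0.67 between Slit2-IR and Slit2-non-IR (adjusted p = 0.0569). Same-numbered libraries deviated together in both of these comparisons, and the second adjusted p became 0.0460 once replicate number entered the fit as a block. Slit2-non-IR hearts were 1.1 ± 0.67 above C57-non-IR hearts on the same scale (adjusted p = 1.0). Without Slit2-non-IR 1, the library with 62 reads, the other Slit2-non-IR libraries are both at 0 and show no spread, so the low p of that fit (adjusted p = 9.90e-08) follows from the choice of library and carries no weight.

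The sequence of Hist1h2al bears on what these reads can be assigned to. Its 339-base transcript has 2 mismatches (99.4% identity) to Hist2h2aa1 and to Hist2h2aa2 on chromosome 3, 6 (98.2%) to Hist2h2ac and 25 (92.6%) to the nearest H2A gene of Hist1. Counted from 1 at the 5′ end of Hist1h2al, with its own base first, the substitutions to Hist2h2aa1 are C120T and T216G. The lines show the stretches around them, bases 110 to 130 and then 206 to 226, with the differing base in capitals.
Hist1h2al, around base 120: agcgtgtgggCgccggcgcgc
Hist2h2aa1, around base 120: agcgtgtgggTgccggcgcgc
Hist1h2al, around base 216: acaagaagacTcgcatcatcc
Hist2h2aa1, around base 216: acaagaagacGcgcatcatcc
Hist2h2aa1 and Hist2h2aa2 had 0 reads in all 12 libraries, and none of their windows of 1 read length (the shorter read length of the study) is unique to one gene, whereas every such window of Hist1h2al is unique. Whether the reads came from Hist1h2al or from a copy close to it in sequence was not tested, since no reads were used here. An antisense miRNA gene, Gm44341, overlaps 109 bases of Hist1h2al and was at 0 FPKM.

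Genes around the near-identical Hist2 copies were then examined, chosen after their values were seen. Of 21 genes in the Hist2 span (chromosome 3, 96219865 to 96270132), 13 had reads, and 3 non-coding genes are described. Some others did not share the distribution of Hist1h2al. Hist2h2be had 2.82 to 4.04 FPKM in all libraries. Hist2h4, Hist2h2ac, Hist2h2ab, Gm20628 and Gm20634 had reads in C57 hearts and their highest value outside the 4 libraries with high Hist1h2al. Beside the 3 described genes, the remaining genes with reads peaked within those 4 libraries. Hist2h3c2 reached 3.19 FPKM and Gm20632, antisense to Hist2h2aa2, 1.95 in Slit2-IR 1, but both had reads in every library. Gm38227, with 12 reads in all, was highest in Slit2-IR 2. Gm15444 had 1 read each in Slit2-non-IR 1 and Slit2-IR 2. The lincRNA Gm42743 (96269721 to 96279001, plus strand), which overlaps Hist2h2bb, had 0.542 FPKM in Slit2-non-IR 1 and 0.489, 0.220 and 0.386 in Slit2-IR hearts, and was at 0 in the other 8 libraries. It thus had reads in the same 4 libraries as the high Hist1h2al values, with 17 reads in Slit2-non-IR 1 and 15, 8 and 13 in Slit2-IR. The processed transcript Gm20627 had 0.266 FPKM in Slit2-non-IR 1, 0.218, 0.0918 and 0.298 in Slit2-IR and 0 to 0.0633 elsewhere, on 5 reads in Slit2-non-IR 1, 4, 2 and 6 in Slit2-IR and 0 or 1 in each other library. Gm20633, antisense to Hist2h2aa1, had 0.477 FPKM in Slit2-non-IR 1 and 0.222 to 0.452 in Slit2-IR hearts, which overlapped the 0.0358 to 0.262 FPKM of the other libraries. Next to Hist1h2al itself, within 200 kb, 4 of 8 other genes had reads, and the best expressed, Spin1, had 7.44 to 9.56 FPKM in the 12 libraries.

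**Figure D3:**
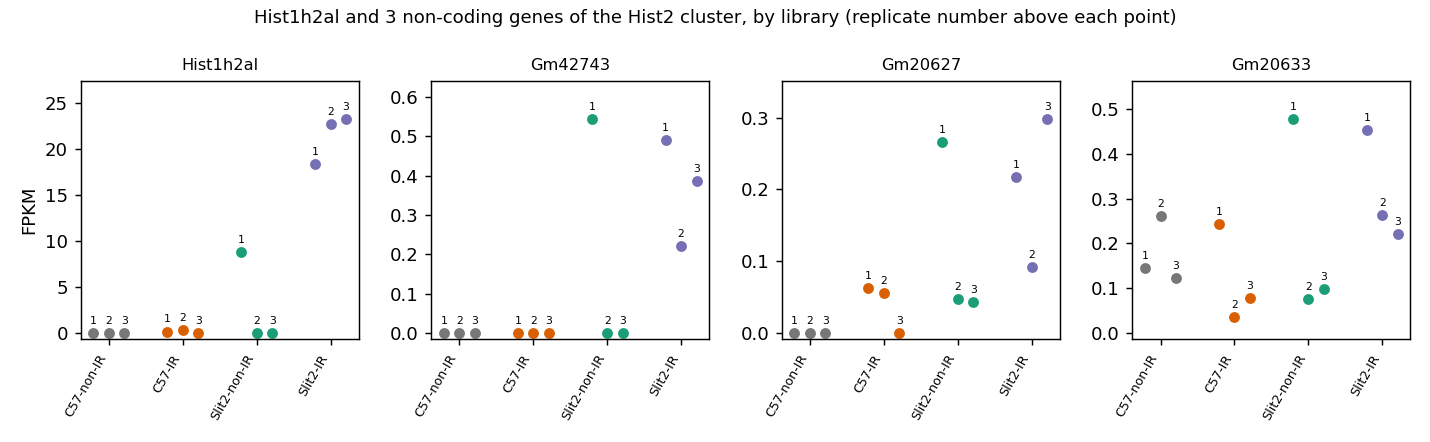
FPKM of Hist1h2al and of the non-coding genes Gm42743, Gm20627 and Gm20633 in the 12 libraries, 1 panel per gene with its own linear axis and the replicate number above each point. For Hist1h2al the 3 Slit2-IR libraries reach 18.3 to 23.2 FPKM, Slit2-non-IR 1 reaches 8.82 and the other 8 are at 0 to 0.299; the same 4 libraries are the highest for Gm42743 and Gm20627, but not all of them for Gm20633.

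Tests were then run over all genes to ask which members differed between groups. A filter on low values kept 18 of 70 members (3 H1, 3 H2A, 6 H2B, 2 H3 and 4 H4 genes) and 15240 genes in all. No member had an adjusted p under 0.05 in any of the 7 comparisons. The counts at an unadjusted p under 0.05 are therefore given as well, each beside the same share over all genes tested, and a member in such a count is not called changed. Where a count includes Hist1h2al, Hist1h2bg or Hist1h4k, that member passed the filter only through libraries in which it is high. For Hist1h2bg these were C57-IR and Slit2-non-IR libraries, and for Hist1h4k non-IR libraries of both genotypes. Fits of these members do not support a difference.

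In C57 hearts, IR was compared with continuous perfusion. Of 18 members, 0 had an adjusted p under 0.05, against 0.459% of all genes, and 2 had an unadjusted p under 0.05, against 8.96% of all genes. Hist1h2bg was 0.30 ± 0.13 higher on the log2 scale (adjusted p = 0.528) and Hist1h4k was at -0.68 ± 0.27 (adjusted p = 0.449). The median log2 difference of the members was 0.04, with 11 higher and 7 lower, against 0.00 for all genes, of which 50.5% were higher.

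In Slit2 hearts, the members with an adjusted p under 0.05 after IR were again 0 (0.525% of all genes), and 2 had an unadjusted p under 0.05 (11.2% of all genes). These were Hist1h2al, described above, and Hist1h2bg, at -0.45 ± 0.13 (adjusted p = 0.166). The median over members was -0.09, with 3 higher and 15 lower, against 0.01 for all genes, of which 51.6% were higher.

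Between genotypes without IR, 0 members had an adjusted p under 0.05 (0.0394% of all genes) and 1, Hist1h2bg, an unadjusted p under 0.05 (3.19% of all genes), at 0.34 ± 0.13 higher in Slit2-non-IR (adjusted p = 1.0). The median was 0.12, with 14 members higher and 4 lower in Slit2-Tg hearts, where 48.9% of all genes were higher. Between genotypes after IR, 0 members had an adjusted p under 0.05 (0.0459% of all genes) and 2 an unadjusted p under 0.05 (3.16% of all genes), namely Hist1h2al and Hist1h2bg, the latter at -0.41 ± 0.13 (adjusted p = 1.0). The median was -0.08, with 6 members higher and 12 lower, and 49.9% of all genes were higher. The 4 comparisons share groups, so their counts are not independent.

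**Figure D4:**
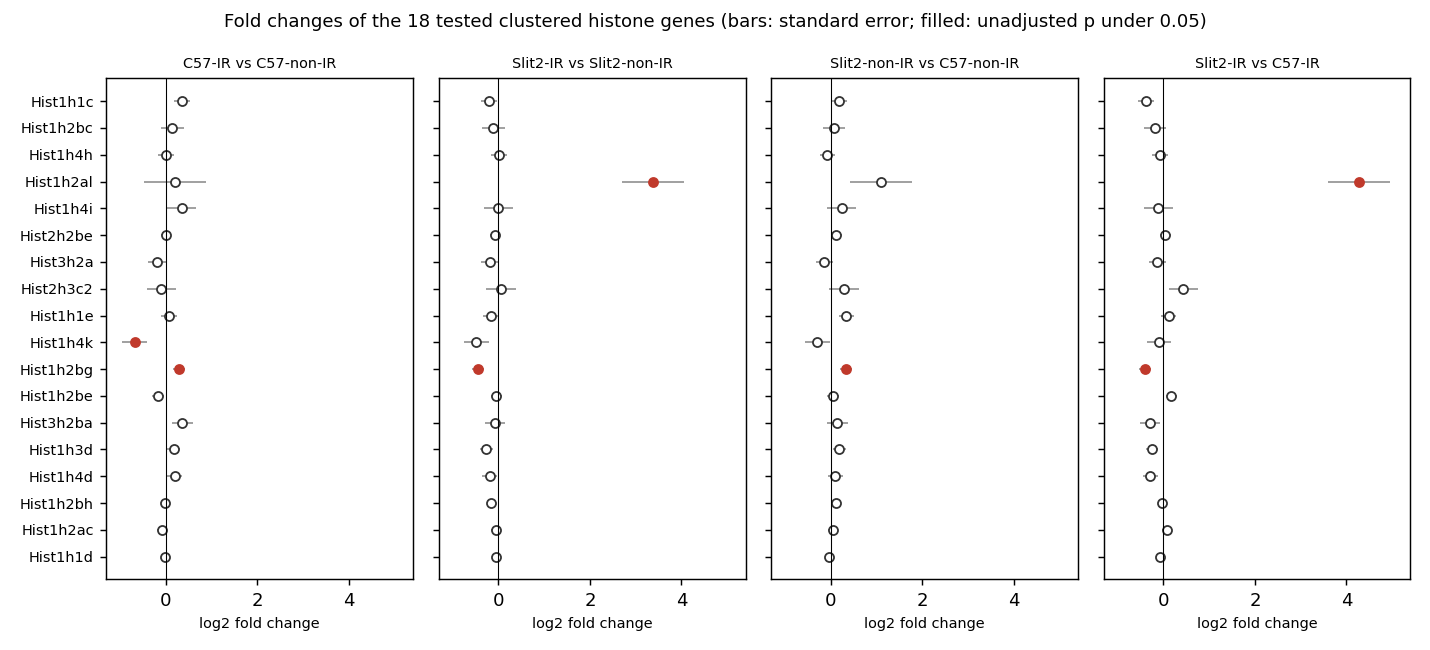
Log2 fold change (x axis, log2(FPKM + 1) scale, lines for the SE) of the 18 tested members in the 4 comparisons between pairs of groups, 1 panel each; filled points have an unadjusted p under 0.05. Hist1h2al reaches 4.28 between Slit2-IR and C57-IR hearts and 3.38 between Slit2-IR and Slit2-non-IR hearts, Hist1h4k is at -0.68 for IR in C57 hearts, and no member has an adjusted p under 0.05.

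Hist1h2bg, an H2B gene (ENSMUSG00000058385, chromosome 13, 23571396 to 23572013, plus strand), had log2 differences of opposite sign with IR in the genotypes, neither of which passed the adjusted threshold. Its FPKM was 0.665, 0.675 and 0.654 in C57-non-IR and 0.742, 1.07 and 1.37 in C57-IR hearts, but 1.33, 1.19 and 0.831 in Slit2-non-IR and 0.319, 0.672 and 0.653 in Slit2-IR hearts. The groups did not overlap within either genotype, and every Slit2-IR library was below every C57-IR library. Of the read-length windows of Hist1h2bg, only 57.9% are unique, and the abundant Hist1h2bc is among the genes that share others. The difference between the IR effects was -0.75 ± 0.18 (adjusted p = 1.0). These values rest on few reads: 7, 9 and 7 in C57-non-IR, 8, 13 and 19 in C57-IR, 17, 17 and 13 in Slit2-non-IR and 4, 10 and 9 in Slit2-IR hearts. Hist1h2bg reached the level of the filter only in C57-IR and Slit2-non-IR libraries, where it is high. Its fits describe these libraries and do not support a difference.

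Hist1h4k, an H4 gene (ENSMUSG00000064288, chromosome 13, 21750194 to 21750505, minus strand), had 1.32, 2.08 and 2.22 FPKM in C57-non-IR, 1.102, 0.163 and 1.28 in C57-IR, 0.618, 1.67 and 1.90 in Slit2-non-IR and 0.474, 0.799 and 0.719 in Slit2-IR hearts. The C57 groups did not overlap, whereas Slit2-non-IR 1 lay within the Slit2-IR range. Its counts were 1 to 15 reads per library, and only 40.4% of its read-length windows are unique. The mean IR effect over both genotypes was -0.58 ± 0.19 (adjusted p = 0.139). Hist1h4k reached the level of the filter only in non-IR libraries, where it is high, so its IR fits do not support a fall. Hist1h3d, an H3 gene with 5 to 22 reads per library, had 0.611, 0.260 and 0.231 FPKM in C57-non-IR, 0.367, 0.487 and 0.748 in C57-IR, 0.309, 0.764 and 0.601 in Slit2-non-IR and 0.276, 0.200 and 0.395 in Slit2-IR hearts, with all 4 groups overlapping.

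For the interaction, the difference of the IR effect between genotypes, 0 members had an adjusted p under 0.05 (0% of all genes) and 4 an unadjusted p under 0.05 (1.86% of all genes). These were Hist1h2al (3.18 ± 0.95), Hist1h2bg, Hist1h1c and Hist1h3d (-0.43 ± 0.19), all with an adjusted p of 1.0. Averaged over genotypes, the IR effect gave 0 members with an adjusted p under 0.05 (3.49% of all genes) and 2 with an unadjusted p under 0.05 (15.9% of all genes). They were Hist1h4k and Hist1h2al (1.79 ± 0.47, adjusted p = 0.0686). Averaged over IR states, the Slit2 effect gave 0 (0.131% of all genes) and 1 (4.13% of all genes), Hist1h2al, at 2.69 ± 0.47 (adjusted p = 0.0732).

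Near-identical copies limit how far reads can be assigned to single members. The share of read-length windows found in the transcripts of no other gene was 100% for 9 members and under 50% for 26, of which 2 were tested, Hist1h4k and Hist2h3c2 (39.5%). All 5 members without any unique window (Hist2h2aa1, Hist2h2aa2, Hist2h2bb, Hist2h3b and Hist2h3c1) had 0 reads in every library. Hist1h2aa and Hist1h2bm, however, were also without reads although 98.1% and 99.3% of their windows are unique. Of the abundant members, 96.7% of windows were unique for Hist1h1c, 78.2% for Hist1h2bc and 65.9% for Hist1h4h. In addition, 26 members overlap another gene.

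**Figure D5:**
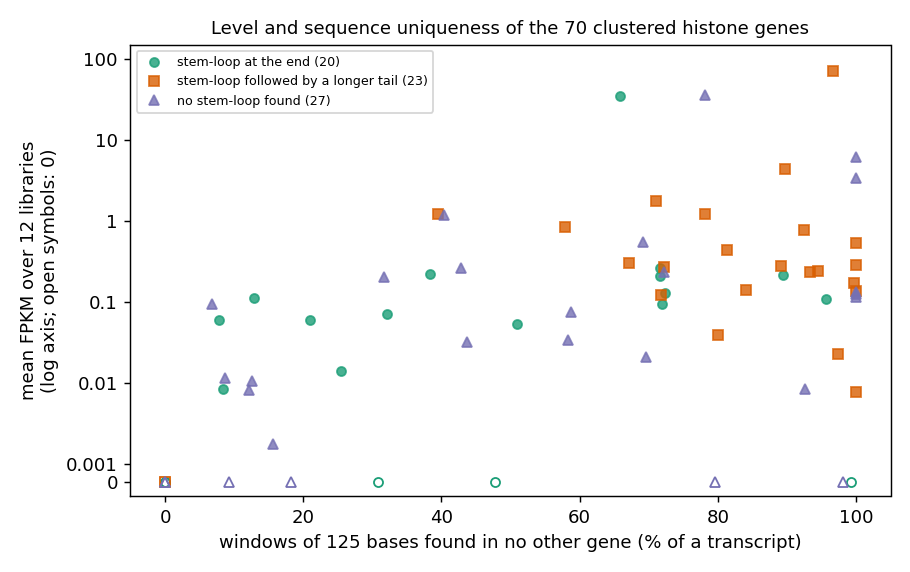
Share of read-length windows of each member that occur in no other gene's transcripts (x axis, percent) against its mean FPKM over the 12 libraries (y axis, log scale with open symbols for 0 at the bottom), 1 point per member, with symbols for how its annotated transcript ends. The 5 members at 0% have no reads, while members with mostly unique windows range from 0 to 71.3 FPKM.

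Many promoters of the members shared sequence elements that the choice by symbol did not use. RefSeq promoter windows (GRCm38.p6, 250 bases before to 50 after the start) were matched, on the gene's own strand, for 61 of 70 members and 27025 genes in all, and searched on both strands. Windows of neighbouring members on opposite strands can overlap, so these promoters are not all independent. For example, Hist1h2ag had 22042900 to 22043199 and Hist1h2bj 22042948 to 22043247 on chromosome 13. CCAAT was present in 52 member promoters (85.2%) and in 37.9% of all promoters, and TATAAA in 35 (57.4%) and 14.2%. AAACACA, an element described for H1 promoters, was present in 9 members (14.8%) and in 7.14% of all promoters; 5 of the 6 H1 genes carried it.

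Histones encoded outside the clusters were measured for comparison. Of 11 replication-independent histone genes, all were tested, and 1 had an adjusted p under 0.05 for the mean IR effect over genotypes, against 3.49% of all genes. This was H3f3b, which encodes H3.3, and it rose after IR. H3f3b had 58.6, 63.9 and 65.3 FPKM in C57-non-IR and 69.3, 131.3 and 132.5 in C57-IR hearts, and 42.3, 63.9 and 67.2 in Slit2-non-IR and 83.2, 116.4 and 88.9 in Slit2-IR hearts. The groups did not overlap in either genotype, and the mean IR effect was 0.75 ± 0.18 (adjusted p = 0.0443). The adjusted p ranged from 0.0035 to 0.116 over 18 alternatives and was under 0.05 in only 6 of them. It was 0.116 without C57-IR 2 and 0.108 with no filter on low values. H1f0, a linker histone of non-dividing cells, had a mean of 59.4 FPKM, H2afv 34.1, H2afz 22.1 and H3f3a 19.6, so several of these single genes were as abundant as the leading clustered members.

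Genes that make and process histone mRNA were counted next. Of 27 listed genes 25 were tested, with 0 at an adjusted p under 0.05 in any comparison; for the mean IR effect 1 was higher and 1 lower at an unadjusted p under 0.05, a count below the 15.9% of all genes. Slbp, the stem-loop binding protein, was 0.26 higher (adjusted p = 0.111), and Lsm11, of the U7 particle that cuts histone pre-mRNA, was 0.14 lower, at -0.14 (adjusted p = 0.221). The most abundant were the cap-binding subunit Ncbp2 and the helicase Upf1, at 12.1 and 11.99 FPKM on average. All 18 histone chaperones, which carry histones to DNA, were tested, with 0 at an adjusted p under 0.05; Hjurp, which loads the centromeric variant Cenpa, was at -0.42 in Slit2-IR against C57-IR hearts (adjusted p = 1.0).

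Of 30 genes of the cell cycle and DNA replication, 28 were tested, with 0 at an adjusted p under 0.05 in any comparison. For the mean IR effect 5 had an unadjusted p under 0.05, namely Cdt1, Mcm3, Mcm4, Pcna and Rrm1, all with a positive difference, a share near the 15.9% of all genes. Pcna, the sliding clamp of DNA polymerase, was the most abundant at 18.7 FPKM on average and was 0.56 higher (adjusted p = 0.095). The 5 genes whose log2(FPKM + 1) followed the summed members most closely over the 12 libraries were Mst1r, Tyms, Ccdc170, Slc25a38 and Gucy2g, with Pearson correlations of 0.904, 0.887, 0.867, 0.864 and 0.859. They are named as a description; the libraries share depth and tissue makeup, and the sum is led by Hist1h1c.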

How the data were processed

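The 12 heart RNA-seq libraries (total RNA, paired-end reads) were analysed from the FPKM values deposited by the authors. HISAT2 and mm10 are named in the submitters' processing notes; the counting tool, its strand setting and its handling of multiply mapped reads are not given in the sources used here. IR status was read from the title letters. Whole reads were recovered from the FPKM steps and gene lengths for 100% of values (tolerance 0.01), and 0 columns of values were left unused. Genes were tested if, in 3 or more libraries, their value reached what 10 reads are worth at median depth, and if they held 15 reads in total. The log2(FPKM + 1) values were fitted with limma 3.58.1 (moderated test with a variance trend, R 4.3.3) over 4 groups without covariates, two-sided, with Benjamini-Hochberg adjustment over all 15240 genes; fold changes on this scale understate changes of low genes. The fit was tested on simulated data in which only better expressed genes were changed, so that check does not cover members with few reads. With 3 against 3, an exact permutation test of a single gene cannot go below 0.1, so none was used. Same-numbered libraries correlated by 0.285, 0.154 and 0.362 between the IR groups and by 0.291, 0.294 and 0.143 between the Slit2 groups; in the other comparisons 1 of 3 correlations was under 0.1. Named were the 15 members with the highest mean, each with an unadjusted p under 0.05 in any comparison, and, from each list, genes with an adjusted p under 0.05 plus up to 5 of the highest mean. The members and lists were chosen with earlier results of these data known. Sequences came from GENCODE M21 transcripts and RefSeq promoters. Alternatives were another pseudocount (0.1), other filters, fewer groups, a replicate block, TMM scaling, limma-voom on recovered reads and each library left out.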

Additional observations from a re-analysis of the deposited data

Results flagged for a closer look

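For 4 members the interaction term, the difference of the IR effect between genotypes, had an unadjusted p under 0.05, but none passed after adjustment over all genes (adjusted p of 1.0 each), and 1.86% of all genes tested had an unadjusted p under 0.05. The log2 difference of the IR effects was -0.75 for Hist1h2bg, 3.18 for Hist1h2al, -0.43 for Hist1h3d and -0.55 for Hist1h1c. Hist1h2al had an unadjusted p under 0.05 in 17 of 17 alternatives. It passed the filter only through the libraries in which it is high, so these alternatives do not support the difference. Hist1h2bg kept an unadjusted p under 0.05 in 17 of 17 alternatives. It reached the level of the filter only in C57-IR and Slit2-non-IR libraries, where it is high. The alternatives thus do not support its difference either. Hist1h1c kept an unadjusted p under 0.05 in 6 of 18 and Hist1h3d in 7 of 17, and both lost it under the replicate block. The Hist1h2bg values rest on 4 to 19 reads per library.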

How the results depend on the processing

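Of 126 differences of the 18 tested members, 14 had an unadjusted p under 0.05. All 14 kept their direction in every alternative run and 9 also kept that p, while 15 of the other 112 gained it in at least 1 alternative. The 14 include values of Hist1h2al, Hist1h2bg and Hist1h4k, which passed the filter only through libraries in which they are high. All 9 values that kept that p belong to these members. Their fits, here and below, do not support a difference. For the adjusted count of 0, the value became 1, Hist1h2al each time, in Slit2-IR against Slit2-non-IR with the replicate block and with limma-voom, and in Slit2-IR against C57-IR with only the groups compared. When 1 library was left out, the adjusted count ranged from 0 to 1 in these 2 comparisons, the interaction and both averaged effects, and was 0 to 0 in the others; the library was Slit2-non-IR 1 each time and also Slit2-non-IR 3 for the averaged Slit2 effect. The adjusted p of Hist1h2al ranged from 5.11e-08 to 0.435 for Slit2-IR against C57-IR and from 9.90e-08 to 0.195 for Slit2-IR against Slit2-non-IR; the lowest values come from leaving out Slit2-non-IR 1, which leaves that group at 0 with no spread, and carry no weight.

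The unadjusted counts moved as follows; the cause was not tested except that fewer members are tested under a stricter filter. For IR in C57 hearts, 2 became 1 with a pseudocount of 0.1, 0 with at least 10 reads in every library, 1 with the replicate block and 1 with limma-voom, and 0 to 2 with 1 library left out. For IR in Slit2 hearts, 2 became 5 with no filter and 0 with the stricter filter, and 2 to 6 with 1 library left out. For Slit2-non-IR against C57-non-IR, 1 became 6 with no filter, 0 with the stricter filter and 0 with limma-voom, and 0 to 2 with 1 library left out. For Slit2-IR against C57-IR, 2 became 0 with the stricter filter, and 2 to 4 with 1 library left out. For the interaction, 4 became 1 with the stricter filter and 2 with the replicate block, and 2 to 5 with 1 library left out. For the averaged IR effect, 2 became 0 with the stricter filter, and 2 to 3 with 1 library left out. For the averaged Slit2 effect, 1 became 3 with no filter and 0 with the stricter filter, and 1 to 2 with 1 library left out. The replicate block (pairing by number) changed no other count by over 1.5 times. A fit of only the groups compared could not be made for the interaction and averaged effects. At 16601154 to 24841291 reads per library, 52 of the 70 members were too low to be tested.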
